A study of Mus musculus with 18 samples.

Results

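The tripartite motif (TRIM) genes are the mouse genes whose symbol is Trim followed by a number. All of them that had a probe set assigned to a single gene were taken, which gave 59 members of the 19475 genes measured. All 59 were in the RefSeq gene table, 58 as protein-coding genes and Trim30e-ps1 as a transcribed pseudogene, and each was measured by a single probe set. Another 6 TRIM probe sets were assigned to several genes and were not used. The name, not a measured value, decided membership.

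TRIM proteins share a RING finger, B-box and coiled-coil region, and most act as ubiquitin ligases whose C-terminal domain chooses the target. In macrophages several of them act in the pathways that sense viral nucleic acids or bacterial lipopolysaccharide (LPS), either passing the signal on or switching it off, and a number are themselves interferon-stimulated genes. Members with a PRY-SPRY domain make up the largest class, and others end in a PHD finger with a bromodomain, NHL repeats, a transmembrane helix or no named domain.

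The arrays measured bone marrow-derived macrophages (BMDM), which grow out of marrow cells in medium conditioned by L929 cells, on day 7 of differentiation. The mice were of a background that was 94% C57BL/6 and 6% 129/Ola, and either Wbp7+/- (HET) or Wbp7-/- (KO). Wbp7, listed on the array as Kmt2b, encodes a histone H3 lysine 4 methyltransferase. The cells were untreated or received 10 µg/ml LPS for 2 h or 4 h, with 3 arrays in each of the 6 groups and 18 in all. The control genotype is therefore heterozygous, with 1 copy of Wbp7 already disrupted, and no wild-type cells were in the comparison. How the allele was disrupted, and whether the 3 samples of a group came from separate mice, is not stated in the labels, so p-values measure the spread between these samples, which may be technical.

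Values are log2 signals per probe set, with no depth behind them, so that 3 arrays a group set the precision. The Kmt2b probe set lay between 9.94 and 10.97 over all arrays and was not called between the genotypes (KO minus HET -0.24, -0.06 and -0.09 at 0, 2 and 4 h, limma adjusted p = 1, 0.915 and 0.718). It covers no stated part of the disrupted region and so gave no check of the labels, and HET and KO below are the labels' names. Macrophage markers were at the top of the signal range, with a median percentile of 99 over 9 genes and Adgre1, Csf1r, Cd68 and Lyz2 at the 100th. Lymphocyte and mast cell markers had median percentiles of 17 and 9, while neutrophil and progenitor, stromal, and dendritic cell and MHC class II genes had 60, 54 and 62.5. HET replicate 1 stood apart at every time: its log2 differences to the other arrays of its group had an SD of 0.435 to 0.531 over all genes, against 0.175 to 0.279 for all other pairs. All 21 measured genes of an interferon response list were higher in it than in the mean of its group's other arrays, by a median of 0.81, 0.59 and 0.22 log2 units at 0, 2 and 4 h. The array mean of 8 dendritic cell and MHC class II genes reached 10.04 in untreated HET cells, where its lowest value was 8.10, and lay between 8.15 and 8.69 in untreated KO cells. In bulk samples, fewer cells of a type and less RNA per cell cannot be told apart. Differences between the genotypes that were called, and others named below, are therefore given with and without HET replicate 1.

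Promoters from RefSeq are shown because several members that rose together carried an interferon-stimulated response element. Windows from 250 bases before to 50 after a transcript start (GRCm38.p6) were at hand for 46 of the 59 members. The core of the element, GAAANNGAAA on either strand, occurred in 8 of the 46 (17.4%), namely Trim12a, Trim12c, Trim2, Trim21, Trim26, Trim30a, Trim30d and Trim34a, and in 3.99% of 27025 genes. Of the 15 members with a window that were higher after 4 h of LPS in HET cells, 7 held it, against 0 of 12 that were lower and 1 of 19 that were not called. That last member, Trim2, held it at 1 of several alternative starts. Of the 7, Trim12a, Trim12c, Trim30a, Trim30d and Trim34a lie in a run of related genes on chromosome 7. The members are therefore not independent of each other in these counts or in the CpG counts below. The gamma-activated site, TTCNNNGAA, was in 5 of the 46 (10.9%) and in 9.55% of genes. A match is a description of the letters, not a bound site. The windows that follow run 5′ to 3′ on the gene's strand from position -70 to 50 around the start (for Trim26, from -210 to -91), with matches to the core in capitals. Trim27, lower after LPS and without a match, is set beside them, and of the 2 starts of Trim30a with a match the upstream copy is shown.
Trim21, chr7:102565433-102565552, minus strand: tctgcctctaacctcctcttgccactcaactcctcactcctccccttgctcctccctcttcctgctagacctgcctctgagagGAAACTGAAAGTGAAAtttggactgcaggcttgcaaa
Trim30a, chr7:104465144-104465263, minus strand: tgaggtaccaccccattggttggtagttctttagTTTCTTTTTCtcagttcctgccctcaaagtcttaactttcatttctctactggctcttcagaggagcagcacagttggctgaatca
Trim30d, chr7:104507800-104507919, minus strand: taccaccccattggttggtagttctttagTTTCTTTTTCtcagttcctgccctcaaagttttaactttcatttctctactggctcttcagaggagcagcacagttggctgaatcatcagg
Trim12a, chr7:104315446-104315565, minus strand: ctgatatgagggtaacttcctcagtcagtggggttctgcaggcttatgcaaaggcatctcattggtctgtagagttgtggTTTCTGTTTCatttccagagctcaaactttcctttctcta
Trim12c, chr7:104353300-104353419, minus strand: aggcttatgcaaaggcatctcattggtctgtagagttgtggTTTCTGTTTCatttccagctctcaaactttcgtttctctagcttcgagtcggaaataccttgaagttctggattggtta
Trim34a, chr7:104244387-104244506, plus strand: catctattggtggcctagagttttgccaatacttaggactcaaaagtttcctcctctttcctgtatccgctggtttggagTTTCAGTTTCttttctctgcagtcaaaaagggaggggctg
Trim26, chr17:36836936-36837055, plus strand: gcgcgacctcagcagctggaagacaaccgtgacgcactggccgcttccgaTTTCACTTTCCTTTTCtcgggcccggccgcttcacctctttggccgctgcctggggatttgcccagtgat
Trim27, chr13:21179861-21179980, plus strand: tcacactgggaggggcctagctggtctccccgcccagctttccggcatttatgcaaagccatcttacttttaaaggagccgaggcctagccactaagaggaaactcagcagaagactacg

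In Trim21 the capitals hold overlapping matches, and in Trim26 likewise. Trim30a and Trim30d, which are close copies on chromosome 7, have the same core letters, and so do Trim12a and Trim12c. The match lies within 50 bases of the listed start, on either side of it, in each of the windows with a match except that of Trim26, where it starts at position -160. The promoters also differed in CpG content. The highest count of CG pairs per gene had a median of 8 in members that were higher at 4 h (0 to 28). The median was 27 in members that were lower (14 to 46) and 7 in those not called (0 to 41), with overlapping ranges. Over all genes it was 8 (0 to 67).

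**Figure D1:**
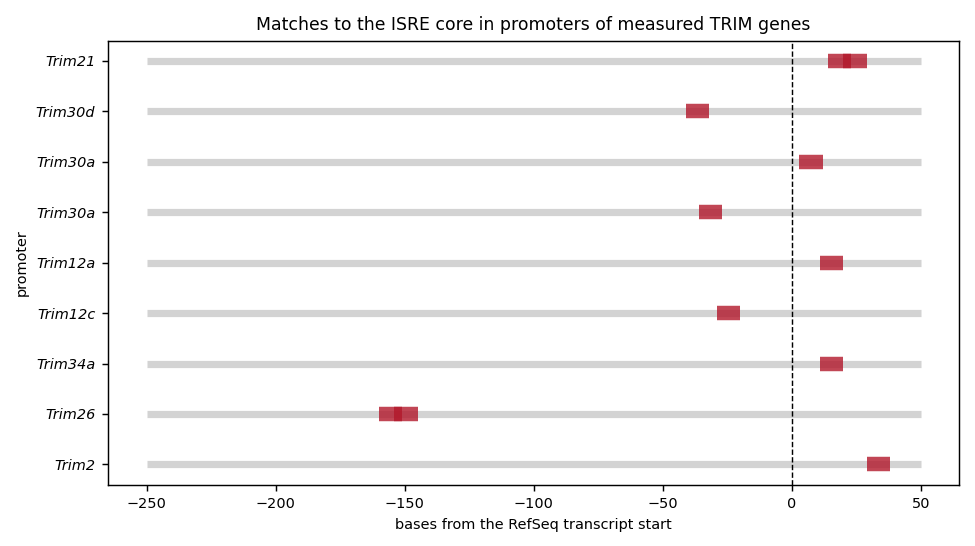
Positions of matches to the ISRE core (red bars) in 300-base RefSeq promoter windows (grey) of measured TRIM genes, in bases from the transcript start (dashed line). Matches occur in 8 genes, and Trim30a has 2 starts with a match each.

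After 4 h of LPS the TRIM genes split into a group that rose and a group of nearly equal size that fell. In HET cells 19 of 59 members were higher (32.2%, against 15.7% of all genes) and 17 were lower (28.8%, against 20.7%), at a limma Benjamini-Hochberg adjusted p under 0.05 over all genes. In KO cells 14 were higher (23.7%, against 6.48% of all genes) and 11 lower (18.6%, against 9.28%). With the replicate number as a block within genotype, 21 members were higher and 18 lower in HET (27% and 26.6% of all genes). In KO 16 were higher and 15 lower (10.4% and 15.7% of all genes). Called members were then 66.1% in HET and 52.5% in KO, against 53.7% and 26% of all genes. The median member changed by 0.14 log2 units in HET and 0.07 in KO, and the median gene by 0.09 and 0.02 (-0.16 in HET with dim genes left out). The 14 members that rose in KO cells were all among the 19 that rose in HET, and the 11 that fell in KO were all among the 17 that fell in HET. That is 73.7% and 64.7% of the HET lists, where the same shares over all genes were 38.7% and 42.3%. As shares of the KO lists, all of the members compare with 93.7% and 94.2% of all genes. The members that rose in HET only were Trim6, Trim29, Trim58, Trim66 and Trim67, all dim, with percentiles of mean signal from 31 to 46. Each lost its call with only the arrays of the contrast fitted, and Trim29 and Trim58 also without HET replicate 1.

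At 2 h the response was smaller. In HET cells 7 members were higher (5.56% of all genes were) and 13 lower (10% of all genes), and in KO cells 4 were higher (2% of all genes) and 1 lower (1.35% of all genes). With the replicate number as a block within genotype, since same-numbered arrays of a genotype deviated together, the counts at 2 h rose to 31 in HET (15 higher, 16 lower) and 9 in KO (5 higher, 4 lower), while 25.6% and 7.30% of all genes were called under the same block. From 2 h to 4 h, 3 members rose further in HET (3.8% of all genes) and 4 fell (4.39%), and in KO 10 rose (2.69%) and 1 fell (1.69%), totals that the block raised to 15 and 17, beside 16.4% and 9.75% of all genes.

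**Figure D2:**
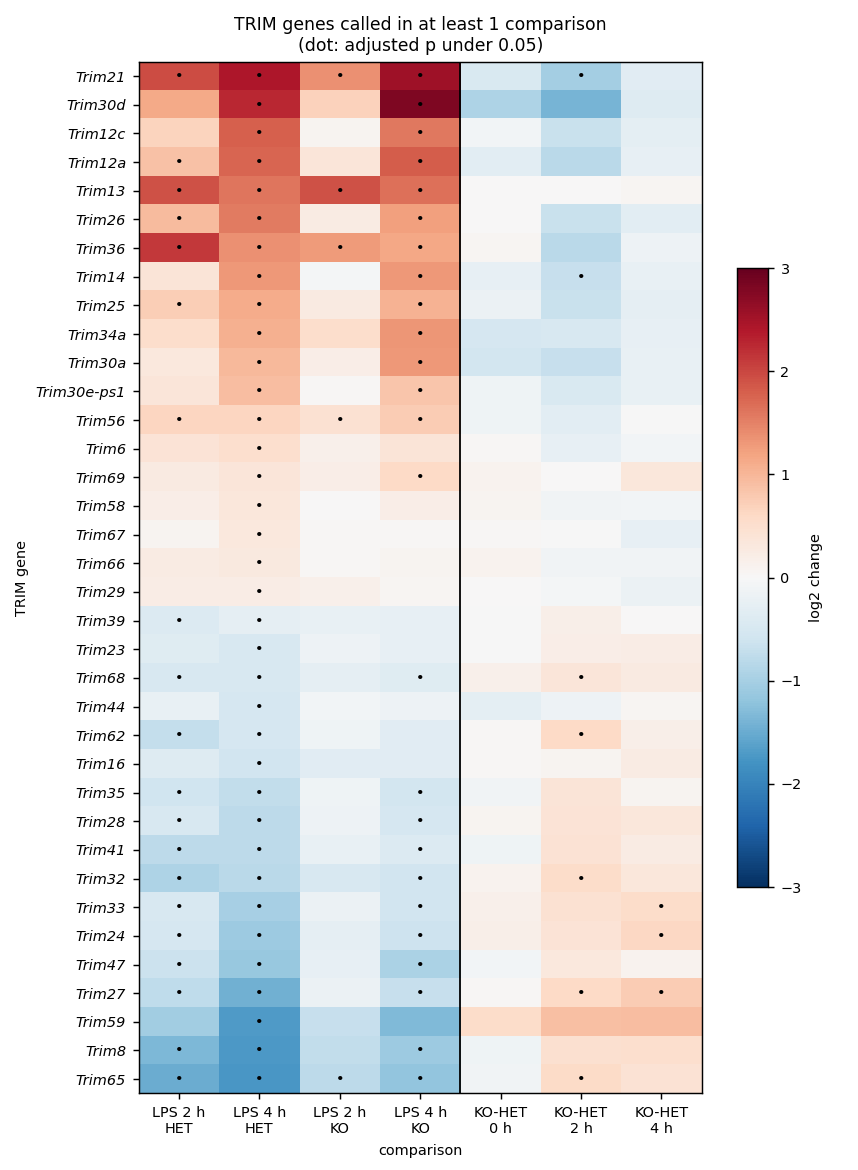
Log2 change (colour) of the 36 TRIM genes called in at least 1 comparison, ordered by their change after 4 h of LPS in HET cells. Dots mark an adjusted p under 0.05; 19 genes at the top rose and 17 at the bottom fell at 4 h in HET, and dots are few in the KO minus HET columns.

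Among the members placed in the PRY-SPRY class, 12 of 28 rose and 8 fell at 4 h in HET, and 10 rose and 6 fell in KO. Members without a RING finger, Trim14 and Trim16 among them, were classed apart and are not in this count. Trim21, the cytosolic antibody receptor that marks antibody-coated virus for degradation (probe set 10566144), was the most raised in HET. Its log2 signals in HET replicates 1, 2 and 3 were 10.74, 10.64 and 10.22 untreated, 12.77, 12.23 and 12.45 at 2 h, and 13.08, 12.99 and 12.78 at 4 h. In KO cells they were 10.16, 9.73 and 10.33, then 11.50, 11.12 and 11.74, then 12.73, 12.32 and 12.81. No treated array overlapped with an untreated one in either genotype. At 4 h Trim21 was 5.35-fold higher in HET (log2 2.42, SE 0.202, limma adjusted p = 4.8e-07) and 5.84-fold higher in KO (log2 2.55, SE 0.202, limma adjusted p = 5.31e-07).

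Trim30d, a member of the mouse Trim30 group (probe set 10566366), read 11.27, 10.22 and 10.03 in untreated HET replicates, 12.70, 11.00 and 11.26 at 2 h and 13.21, 12.70 and 12.42 at 4 h. The KO replicates read 9.69, 8.93 and 10.11, then 10.27, 9.58 and 10.92, then 12.55, 12.10 and 12.49. HET replicate 1 was the highest HET array at each time, and at 2 h its value lay more than 1 log2 unit above both others. The rise at 4 h was 4.82-fold in HET (limma adjusted p = 0.00113) and 6.99-fold in KO (limma adjusted p = 0.000424), with no overlap between treated and untreated arrays.

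Trim12a and Trim12c lie in the same gene cluster and are related to Trim5, whose human counterpart restricts retroviruses. Trim12a (probe set 10566326) read 9.57, 9.65 and 9.23 in untreated HET cells, 10.74, 10.08 and 10.26 at 2 h and 11.42, 11.24 and 11.04 at 4 h, and 9.21, 8.85 and 9.45, then 9.54, 9.17 and 9.90, then 10.99, 10.74 and 11.23 in KO. Trim12c (probe set 10566346) read 8.18, 8.64 and 8.14 in untreated HET cells, 9.37, 8.76 and 8.83 at 2 h and 10.49, 10.15 and 9.71 at 4 h, and 8.28, 7.86 and 8.59, then 8.23, 8.09 and 8.68, then 9.86, 9.46 and 10.14 in KO. Both genes were clear of their untreated arrays at 4 h in both genotypes, while at 2 h in KO the arrays overlapped with the untreated ones. The rise of Trim12a at 4 h was 3.36-fold in HET and 3.52-fold in KO (limma adjusted p = 1.58e-05 and 2.54e-05), and that of Trim12c was 3.46-fold and 2.99-fold (limma adjusted p = 5.33e-05 and 0.000366). Of their log2 change at 4 h, Trim12a had reached 49.9% at 2 h in HET and 20.2% in KO, and Trim12c 37.1% and 5.61%. The HET shares include HET replicate 1, which at 2 h stood 0.58 (Trim12a) and 0.57 (Trim12c) above the mean of the other HET arrays. No test was made of these shares.

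These genes belong to a run on chromosome 7 from Trim6 to Trim30e-ps1 that holds 21 RefSeq genes, 11 of them TRIM genes. Of the 7 measured members in it (Trim6, Trim34a, Trim12a, Trim12c, Trim30a, Trim30d and Trim30e-ps1), all 7 rose at 4 h in HET and 6, all but Trim6, in KO. At 2 h only Trim12a was called in HET and 0 of the 7 in KO. The Trim12a call was lost without HET replicate 1, at all 3 times or at 2 h alone. It was also lost without HET_UT replicate 3 and with only the arrays of the contrast fitted. The members are near copies of each other, probe sets may take signal from a neighbour, and the 7 are therefore not independent of each other. Trim30a, which dampens Toll-like receptor signalling by acting on TAB2 and TAB3, rose 1.96-fold in HET and 2.48-fold in KO (limma adjusted p = 0.00144 and 0.000264). Trim34a rose 2.11-fold and 2.51-fold (limma adjusted p = 0.000566 and 0.000199).

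Other PRY-SPRY members outside the run also rose at 4 h. Trim26, encoded in the MHC region, was 2.96-fold higher in HET and 2.35-fold in KO (limma adjusted p = 1.32e-05 and 0.000264). Trim25, the ubiquitin ligase that activates the RNA sensor RIG-I, was 2.15-fold and 2.05-fold higher (limma adjusted p = 0.000368 and 0.00141). Trim69 was 1.29-fold and 1.52-fold higher (limma adjusted p = 0.00808 and 0.000409). The dim Trim58 was 1.27-fold higher in HET (limma adjusted p = 0.0375), a call lost without HET replicate 1.

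**Figure D3:**
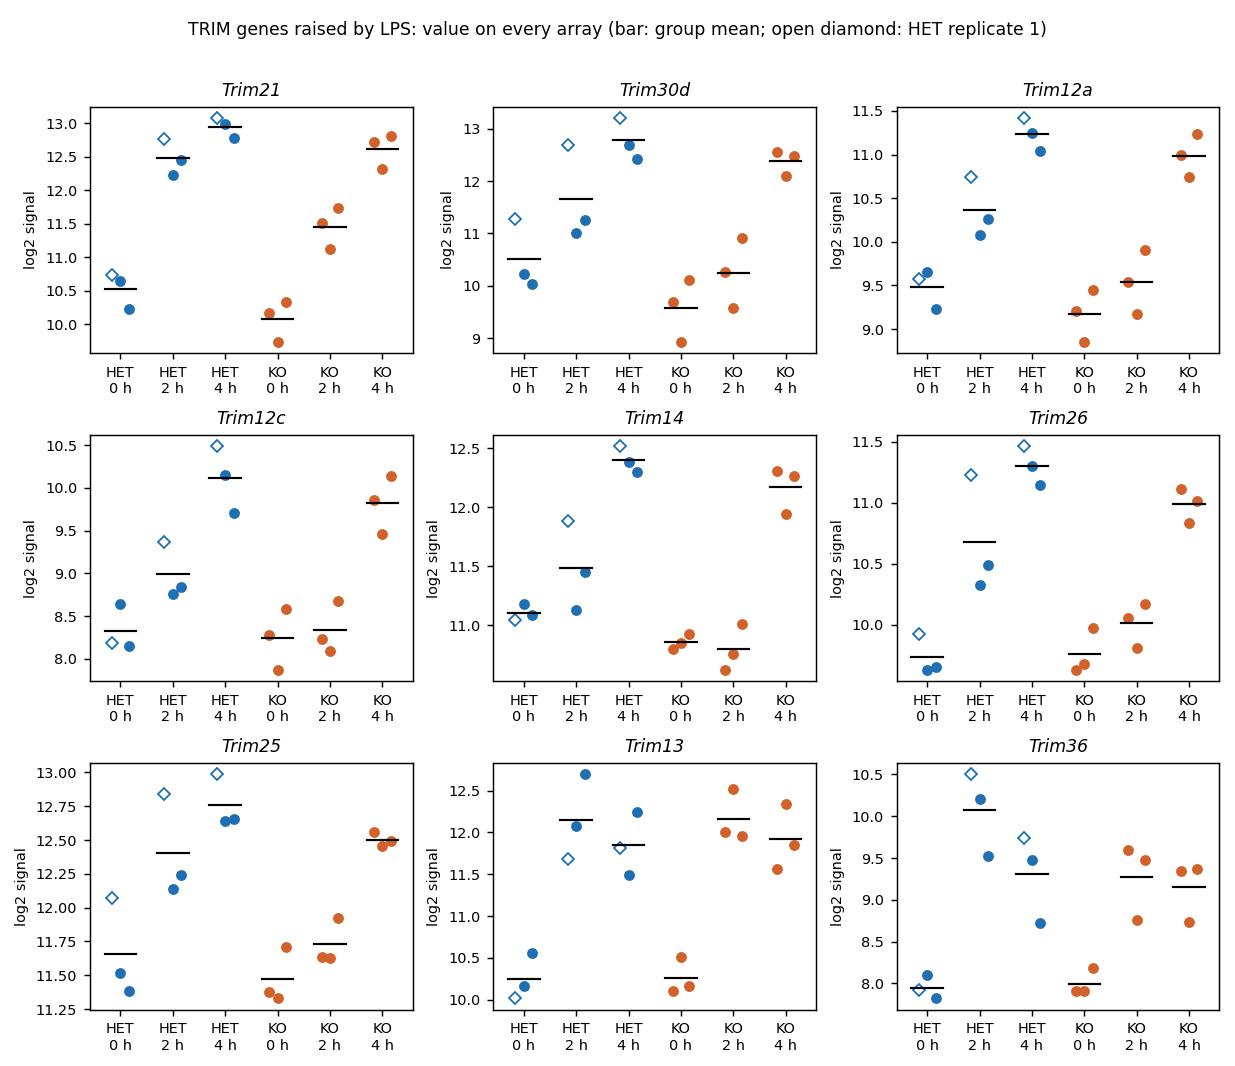
Log2 signal on every array for 9 TRIM genes raised by LPS, by genotype and hours of LPS (blue HET, orange KO; bars are means of 3 arrays; open diamonds are HET replicate 1). At 2 h the KO arrays of Trim21 (11.12 to 11.74) lie below all HET arrays (12.23 to 12.77), and at 4 h the groups overlap.

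Trim13 and Trim36 rose early. Trim13, a ubiquitin ligase anchored in the endoplasmic reticulum membrane (probe set 10415784), read 10.01, 10.17 and 10.56 in untreated HET replicates, 11.68, 12.08 and 12.70 at 2 h and 11.82, 11.50 and 12.25 at 4 h. In KO it read 10.10, 10.51 and 10.17, then 12.01, 12.52 and 11.95, then 11.56, 12.34 and 11.85. The genotypes overlapped at every time, and treated arrays were all above untreated ones. The rise at 2 h was 3.74-fold in both genotypes (limma adjusted p = 0.000151 in HET and 0.000499 in KO).

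Trim36, a microtubule-associated member with COS, FN3 and SPRY domains (probe set 10458767), read 7.92, 8.10 and 7.82 in untreated HET cells, 10.50, 10.21 and 9.53 at 2 h and 9.74, 9.47 and 8.72 at 4 h. In KO it read 7.90, 7.90 and 8.18, then 9.60, 8.76 and 9.48, then 9.34, 8.74 and 9.37. All treated arrays were above all untreated ones. The rise at 2 h was 4.39-fold in HET (limma adjusted p = 0.000101) and 2.43-fold in KO (limma adjusted p = 0.0188), and in neither genotype was the step from 2 h to 4 h called. Its class-mate Trim67 also rose at 4 h in HET (1.25-fold, limma adjusted p = 0.025).

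Trim14, a mitochondrial adaptor of antiviral signalling that lacks a RING finger (probe set 10512766), rose late. Its HET arrays read 11.05, 11.18 and 11.09 untreated, 11.89, 11.13 and 11.45 at 2 h and 12.52, 12.38 and 12.30 at 4 h, and its KO arrays 10.80, 10.86 and 10.93, then 10.62, 10.76 and 11.01, then 12.31, 11.95 and 12.27. At 2 h it overlapped with the untreated arrays in both genotypes. At 4 h it was 2.45-fold higher in HET and 2.48-fold in KO (limma adjusted p = 1.33e-05 and 2.66e-05), and the step from 2 h to 4 h was 1.88-fold in HET and 2.60-fold in KO (limma adjusted p = 0.0019 and 0.00018). Trim56, which acts with the DNA sensor adaptor STING, rose 1.58-fold and 1.70-fold at 4 h (limma adjusted p = 0.000554 and 0.000322). Unlike Trim14 it was also called at 2 h in both genotypes, though the KO call was lost under 8 of 14 alternatives. By 2 h Trim56 had reached 98.0% of its log2 change at 4 h in HET and 60.0% in KO. These shares were not tested.

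The members that fell include regulators of the same sensing pathways. Trim65, the ubiquitin ligase of the RNA sensor MDA5 (probe set 10393113), fell furthest in HET. It read 10.26, 9.81 and 10.32 in untreated HET replicates, 8.49, 8.80 and 8.65 at 2 h and 8.22, 8.55 and 8.38 at 4 h, and 9.91, 9.89 and 10.25, then 9.18, 9.29 and 9.23, then 8.70, 8.99 and 8.79 in KO. No treated array reached an untreated one. At 4 h it fell by 1.75 log2 units in HET and by 1.19 in KO (limma adjusted p = 3.72e-07 and 2.77e-05), 3.36-fold and 2.28-fold.

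Trim8, which acts on TAK1 and SOCS1 in cytokine signalling, fell by 1.73 in HET and by 1.10 in KO at 4 h (limma adjusted p = 8.26e-05 and 0.00675). Trim47 fell by 1.13 and by 0.94 (limma adjusted p = 5.23e-06 and 5.93e-05), and Trim35 by 0.74 and by 0.55 (limma adjusted p = 0.000265 and 0.00543). Trim59, a transmembrane member, fell by 1.70 in HET (limma adjusted p = 0.0257), but its arrays overlapped: HET replicate 1 read 7.16, 6.51 and 6.56 at 0, 2 and 4 h where the other HET arrays read 9.56 and 9.60, 8.48 and 8.21, and 7.56 and 7.10. Without HET_4h replicate 1, HET_UT replicate 2 or HET_UT replicate 3 this call was lost. In KO the change of Trim59 at 4 h was -1.33, the largest fall of any member there, but it was not called. Its KO arrays had an SD of 0.06, 0.19 and 0.23 at 0, 2 and 4 h, against 1.40 in untreated HET cells, and the fit pools the spread over all groups.

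Trim27, known as RFP and as a brake on IKK-family kinases (probe set 10403903), read 10.74, 10.56 and 10.70 in untreated HET cells, 9.59, 10.26 and 9.89 at 2 h and 9.02, 9.39 and 9.28 at 4 h. In KO it read 10.52, 10.75 and 10.81, then 10.57, 10.40 and 10.57, then 9.99, 10.06 and 9.96. The KO arrays were above the HET arrays at both LPS times. At 4 h Trim27 fell by 1.44 in HET and by 0.69 in KO (limma adjusted p = 2.31e-06 and 0.00299).

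The class with a PHD finger and a bromodomain holds nuclear corepressors that read histone marks, and 3 of its 4 members fell at 4 h in both genotypes. Trim24 (TIF1-alpha, probe set 10537318) read 8.88, 8.84 and 8.96 in untreated HET replicates, 8.01, 8.60 and 8.56 at 2 h and 7.60, 7.84 and 8.0 at 4 h, and 8.94, 9.03 and 9.21, then 8.78, 8.74 and 8.85, then 8.22, 8.67 and 8.43 in KO. Trim33 (TIF1-gamma, probe set 10494924) read 10.97, 10.95 and 10.91 in untreated HET cells, 10.14, 10.70 and 10.55 at 2 h and 9.79, 9.85 and 10.19 at 4 h, and 11.03, 11.05 and 11.18, then 10.87, 10.92 and 10.95, then 10.27, 10.67 and 10.56 in KO. In both genes the 4 h KO arrays lay above all 4 h HET arrays. Trim24 fell by 1.08 in HET and by 0.62 in KO (limma adjusted p = 5.06e-05 and 0.00912). Trim33 fell by 0.997 and by 0.58 (limma adjusted p = 4.61e-05 and 0.00775), and Trim28, the KAP1 corepressor of KRAB zinc finger proteins, by 0.77 and by 0.50 (limma adjusted p = 0.000554 and 0.0233). Trim66, the remaining member, was 1.22-fold higher in HET (limma adjusted p = 0.0186).

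Trim32, Trim62 and Trim68 also fell. Trim32, an NHL-repeat ubiquitin ligase mutated in a limb-girdle muscular dystrophy (probe set 10505512), read 8.64, 8.82 and 8.75 in untreated HET cells, 7.46, 8.08 and 7.90 at 2 h and 7.67, 8.13 and 7.97 at 4 h, and 8.87, 8.86 and 8.79, then 8.35, 8.33 and 8.41, then 8.11, 8.32 and 8.36 in KO. Trim62, which ubiquitinates CARD9 (probe set 10508376), read 9.39, 9.25 and 9.19 in untreated HET cells, 8.48, 8.80 and 8.41 at 2 h and 8.80, 8.92 and 8.60 at 4 h, and 9.22, 9.20 and 9.47, then 9.18, 9.0 and 9.33, then 8.95, 8.84 and 9.09 in KO. In both genes the 2 h KO arrays were all above the 2 h HET arrays. Trim68 (probe set 10566161) read 8.34, 8.44 and 8.45 in untreated HET cells, 7.90, 7.94 and 7.93 at 2 h and 7.93, 7.98 and 7.86 at 4 h, and 8.50, 8.49 and 8.69, then 8.30, 8.25 and 8.30, then 8.13, 8.30 and 8.14 in KO. At 2 h in HET, Trim32 fell by 0.92, Trim62 by 0.71 and Trim68 by 0.49 (limma adjusted p = 0.00026, 0.000931 and 0.000323).

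**Figure D4:**
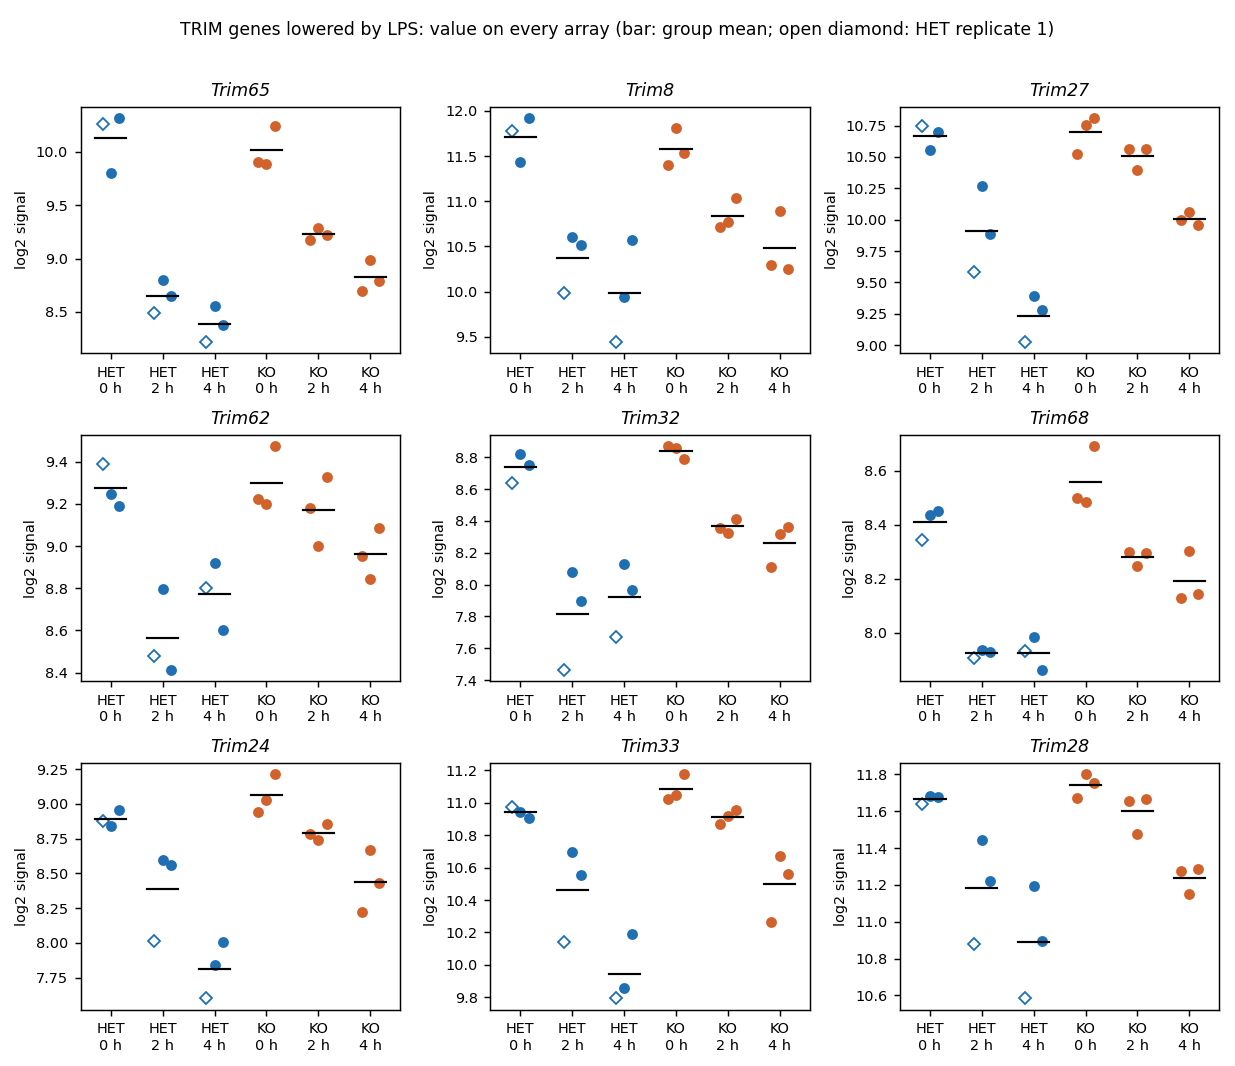
Log2 signal on every array for 9 TRIM genes lowered by LPS, drawn as for the raised genes (blue HET, orange KO; bars are means of 3 arrays; open diamonds are HET replicate 1). At 2 h the KO arrays of Trim68 (8.25 to 8.30) lie above all HET arrays (7.90 to 7.94).

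The other called members were Trim41, Trim39, Trim16, Trim44 and Trim23, which fell, and Trim6, Trim29 and Trim30e-ps1, which rose, at 4 h in HET. The remaining 23 members were called in none of the comparisons, and 20 of them lay below the median gene in mean signal. They include the muscle RING finger genes Trim54, Trim55 and Trim63, the muscle membrane repair gene Trim72 and Trim71, a regulator of stem cells. Among all 59 members, 27 lay below the median gene, and a small change of such dim probe sets could be missed.

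The size of the response was set side by side between genotypes, whose arrays are separate. At 2 h the change was smaller in KO than in HET in 49 of 59 members (83.1%, against 68.3% of all genes), and at 4 h in 42 (71.2%, against 77.4%). HET replicate 1 is in these counts. At 2 h it stood above the mean of the other HET arrays for some raised genes, such as Trim26 (0.82). It stood below that mean for some lowered genes, such as Trim8 (-0.57), but also for Trim13 (-0.70), which rose. Its part in the counts was not tested. The sign was the same in 52 members at 2 h and in 56 at 4 h, and in 78.8% and 86.3% of all genes. Tested gene by gene as an interaction, the difference in response was called in 0 members at either time, at 2 h beside 0% of all genes called (8 members at an unadjusted p under 0.05, smallest limma adjusted p = 0.52) and at 4 h beside 0.0513% (4 members at an unadjusted p under 0.05, smallest limma adjusted p = 0.388). At 4 h the largest difference was that of Trim27, 0.74 log2 units less of a fall in KO.

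**Figure D5:**
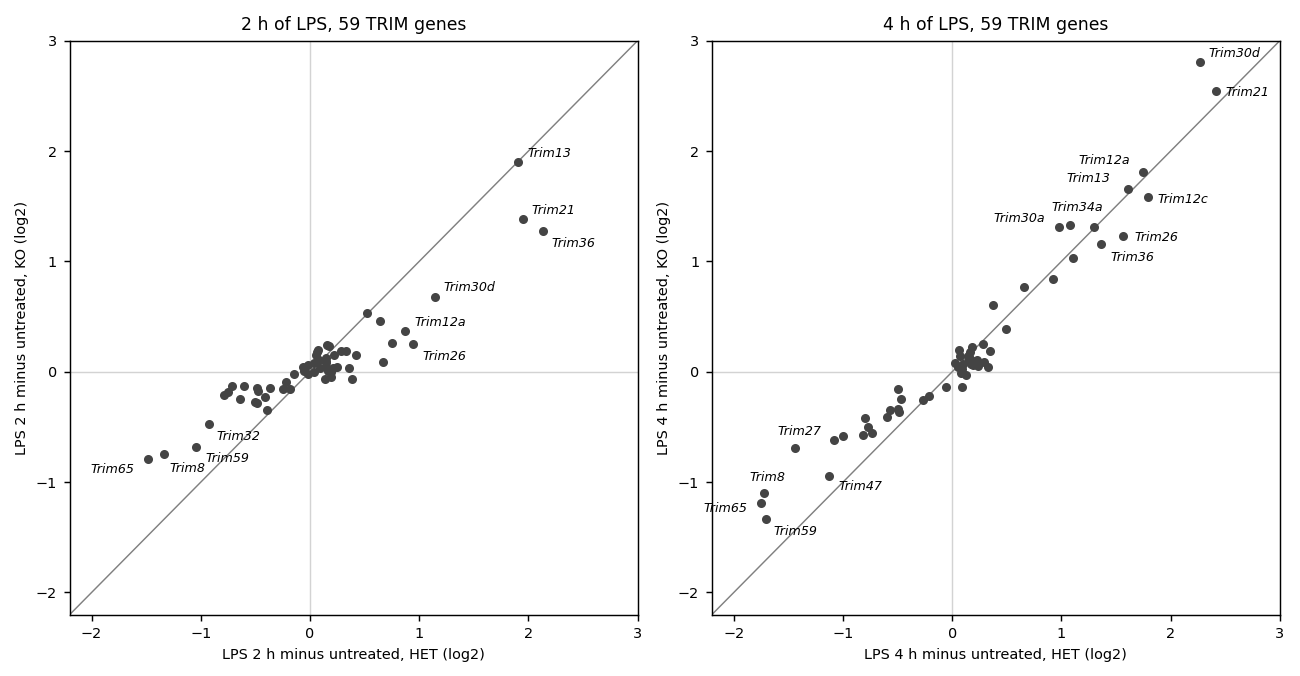
Log2 change after LPS in HET (x axis) and KO (y axis) for the 59 TRIM genes at 2 h and 4 h, with the line of equal change. With HET replicate 1 included, 49 genes changed less in KO at 2 h. Trim13 lies on the line at 2 h (1.90 in both), and at 4 h Trim30d (2.27 and 2.80) and Trim21 (2.42 and 2.55) lie above it.

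In untreated cells no member was called between KO and HET (0 of 59, 0.416% of all genes either way; 4 at an unadjusted p under 0.05, smallest limma adjusted p = 0.675). Trim30d differed by -0.93 (95% interval from -1.90 to 0.03), Trim30a by -0.55 (from -0.98 to -0.12) and Trim59 by 0.55. Without HET replicate 1 these differences were -0.55, -0.44 and -0.25, so that the sign of Trim59 turned.

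After 2 h of LPS, 5 members were higher in KO than in HET (8.47%, against 1.22% of all genes) and 2 were lower (3.39%, against 1.54%). Lower in KO were Trim21, by 1.03 log2 units or 2.04-fold (SE 0.202, limma adjusted p = 0.0162), and Trim14, by 0.69 or 1.62-fold (limma adjusted p = 0.0289). Both rose at 4 h in HET, on other arrays. The 5 that were higher had all fallen at 4 h in HET: Trim62 by 0.61, Trim27 by 0.60, Trim65 by 0.58, Trim32 by 0.55 and Trim68 by 0.36 (limma adjusted p = 0.0192, 0.0368, 0.041, 0.0467 and 0.0211). The arrays of the genotypes did not overlap in any of the 7, nor in 16 members that were not called (23 of 59 in all, 39%, against 19.9% of all genes).

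All 7 calls depended on single arrays. With HET replicate 1 left out at all 3 times, 0 of the 7 were called, and their differences were -0.88 for Trim21, -0.50 for Trim14, 0.56 for Trim62, 0.43 for Trim27, 0.50 for Trim65, 0.37 for Trim32 and 0.35 for Trim68 (limma adjusted p = 0.0509, 0.0791, 0.0567, 0.0786, 0.109, 0.0521 and 0.0504). The count was also 0 without HET_2h replicate 1 alone or without KO_2h replicate 1, and 14 without HET_2h replicate 2, 2 without HET_2h replicate 3, 1 without KO_2h replicate 2 and 3 without KO_2h replicate 3. With only the arrays of the contrast fitted it was 0. With each array centred on its median the split was 1 higher and 2 lower, and after quantile normalization 2 and 2. With the replicate block within genotype it was 3 and 4 (0.97% and 1.68% of all genes): Trim27 and Trim65 were not called (limma adjusted p = 0.055 and 0.0775), while Trim12a (-0.82) and Trim25 (-0.68) were lower (limma adjusted p = 0.0273 and 0.0372). Without HET replicate 1 and without the block, Trim12a and Trim25 differed by -0.63 and -0.46 (limma adjusted p = 0.193 and 0.063). Trim14 and Trim27 in HET replicate 1 stood 0.59 above and 0.49 below the mean of the other arrays at 2 h. The array means of the dendritic cell and MHC class II list at 2 h ran from 8.60 to 10.27 in HET and from 8.61 to 9.25 in KO, and medians of the interferon list were 13.41, 12.68 and 12.99 in HET replicates 1, 2 and 3 and 11.39, 11.30 and 12.13 in KO. The part of either list in the calls was not tested.

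After 4 h, 3 members were higher in KO (1.32% of all genes) and 0 lower (1.1% of all genes; 9 members at an unadjusted p under 0.05 in either direction). They were Trim27 (0.77, limma adjusted p = 0.0101), Trim24 (0.63, limma adjusted p = 0.0411) and Trim33 (0.55, limma adjusted p = 0.0468). Without HET replicate 1 at all 3 times, the differences of Trim27, Trim24 and Trim33 were 0.67, 0.52 and 0.48 (limma adjusted p = 0.0062, 0.0256 and 0.0398), and Trim59 was also called (0.67, limma adjusted p = 0.0289). Without HET_4h replicate 1 alone the count was 0, as it was with only the arrays of the contrast fitted. It was 1 without HET_4h replicate 2 or KO_4h replicate 3, where Trim27 kept its call. It was also 1 without KO_4h replicate 2, but there Trim27, Trim24 and Trim33 all lost their calls. Trim33 also lost its call with each array centred, after quantile normalization and with the block within genotype (limma adjusted p = 0.0556, 0.0593 and 0.0557). Trim21 at 4 h differed by -0.33 (limma adjusted p = 0.275), with overlapping arrays, and by -0.26 without HET replicate 1 (limma adjusted p = 0.597).

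The genes raised at 4 h could also be followed at 2 h, on arrays whose means did not enter their call (the fit shares its estimate of the spread), although the same-numbered arrays of a genotype deviated together. Of the 19 members higher at 4 h in HET, 17 were below HET in KO at 2 h (89.5%, median -0.49), and of the 17 that were lower at 4 h, 16 were above HET (94.1%, median 0.42). Trim13 and Trim69, and Trim44, were the exceptions. The genes were picked by HET calls alone, and no set picked by KO calls is given. Deviations that HET arrays share between 2 h and 4 h can therefore favour such shares, so the shares do not by themselves show a weaker response in KO. Over all genes called at 4 h the shares were 86.6% and 91.7%, with medians of -0.14 and 0.25. Without HET replicate 1 the members' shares were again 89.5% and 94.1%, with medians of -0.25 and 0.28, and those of all genes 72% and 85.9%.

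TRIM proteins known by other names were measured as well. Of 8 genes, 4 rose at 4 h in HET (15.7% of all genes) and 4 in KO (6.48% of all genes). They were led by Mefv, which encodes the inflammasome sensor pyrin (log2 2.67 and 2.39, limma adjusted p = 0.000126 and 0.000731). Pml, the organizer of nuclear bodies, and Mid1, a microtubule-binding ubiquitin ligase, followed. Pml at 2 h read 12.12, 10.99 and 11.57 in HET and 10.37, 10.34 and 10.71 in KO, without overlap, a difference of -1.09 (limma adjusted p = 0.0127) that was -0.81 without HET replicate 1 (limma adjusted p = 0.0156). Mid1 was also lower in KO at 2 h (-0.64, limma adjusted p = 0.0467), a call lost without HET replicate 1 (-0.56, limma adjusted p = 0.0965). At 4 h Mid1 read 11.75, 11.80 and 11.89 in HET and 11.19, 10.73 and 10.93 in KO, also without overlap, a difference of -0.87 (limma adjusted p = 0.0101), or -0.90 without HET replicate 1 (limma adjusted p = 0.00682).

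Of 42 listed genes on which TRIM proteins act or with which they signal, 35 were measured. At 4 h 17 rose and 4 fell in HET (15.7% and 20.7% of all genes), and 16 rose and 3 fell in KO (6.48% and 9.28% of all genes). Ifih1, the MDA5 sensor that Trim65 ubiquitinates, rose by 2.76 in HET and 2.88 in KO (limma adjusted p = 3.16e-07 and 3.97e-07), while Mavs, the adaptor downstream of it, fell by 1.25 and by 0.72 (limma adjusted p = 3.1e-05 and 0.00647). At 2 h 7 of the 35 were lower in KO (1.54% of all genes) and 0 higher (1.22% of all genes). Among the 7 were Zbp1, Ifih1, Herc6 and Ddx58 (-1.61, -1.53, -1.50 and -1.06, limma adjusted p = 0.0484, 0.00236, 0.0127 and 0.0317). Without HET replicate 1 the count was 2, Ifih1 and Herc6 (-1.25 and -1.19, limma adjusted p = 0.0039 and 0.037). Zbp1 and Ddx58 were then not called (-1.26 and -0.88, limma adjusted p = 0.112 and 0.103). At 4 h and in untreated cells 0 were called between genotypes, with medians of -0.17 and -0.10. Without HET replicate 1 these medians were -0.006 and -0.084. The interferon response list shares 7 genes with these 35. Of its 21 genes, 11 were lower in KO at 2 h (median -1.14), where 1.54% of all genes were. Without HET replicate 1, 7 were lower (median -0.998). At 4 h or untreated 0 genes of the list were called. Its medians were -0.92 untreated and -0.30 at 4 h, and -0.68 and -0.21 without HET replicate 1.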

How the data were processed

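The authors deposited log2 signals for each probe set, computed by RMA in Partek 6.5 per the submitters' processing notes, which name no settings. The quantile step of RMA can hide a shift shared by most genes; array medians ran from 8.05 to 8.13. Of 25344 probe sets, the 1530 assigned to several genes and the 2677 with none in the platform's gene table were left out, and 915 genes with several probe sets were taken at the highest mean. Means for the 6 groups were fitted to all 19475 genes of the 18 arrays with limma 3.58.1 (R 4.3.3; 12 residual and 3.17 prior degrees of freedom), with Benjamini-Hochberg adjustment over all genes of a contrast and calls at 0.05. The script was tested on simulated data. Arrays have no depth; their number limits the precision. No value column was unused.

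The members, the lists and the rule for named genes (members called between genotypes, the 6 largest called changes in HET, and up to 3 more per domain class) were chosen with earlier results of these data known. Same-numbered arrays of a genotype deviated together (r from 0.320 to 0.796 in 18 pairs, with no label that says why), so blocked counts stand beside the LPS results they moved; across genotypes r ran from -0.353 to 0.390 in 27 pairs. Alternatives were centring, quantile normalization, no dim genes (below the 40th percentile), the mean of probe sets, only the contrast's arrays, replicate blocks, and arrays left out. Figures used Python 3.11.15 and matplotlib 3.10.9.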

Additional observations from a re-analysis of the deposited data

How the results depend on the processing

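No called member change turned its direction: of 1587 values of the called member changes under the alternatives, 1362 kept direction and call, 225 lost the call and 0 changed sign, and 62 of 114 called changes held under every alternative, the rise of Trim21, Trim14 and Trim30a at 4 h in both genotypes among them. None of the called KO minus HET differences was among these 62. Counts of members called moved by over 1.5 times as follows. KO minus HET at 2 h, 7 as reported, gave 3 with arrays centred, 4 after quantile normalization, 0 with only the contrast's arrays, 13 with a replicate block over all arrays, 0 without HET replicate 1 at all 3 times and 0 to 14 with 1 array left out. At 4 h, 3 as reported, it gave 0 with only the contrast's arrays and 0 to 3 with 1 array left out. Fitting only the contrast's arrays gave 10 and 9 for LPS at 2 h in HET and KO, and 0 and 18 for 4 h against 2 h. The replicate block within genotype gave 31 and 9 for LPS at 2 h, and 15 and 17 for 4 h against 2 h. It moved no other count of members by over 1.5 times. Over all genes, calls for LPS at 4 h in HET went from 7085 to 10450 under this block. Leaving out HET replicate 1 at all 3 times gave 10 for LPS at 2 h in KO, and 15 and 19 for 4 h against 2 h. With 1 array left out, LPS at 2 h gave 15 to 22 in HET and 3 to 4 in KO, and 4 h against 2 h gave 2 to 16 in HET and 7 to 10 in KO. Without HET_2h replicate 1 the latter HET count was 16, and without HET_2h replicate 2 it was 2. The median of all genes at 4 h in HET was 0.09 as reported and -0.16 without dim genes. Dim probe sets, 23 members below the 40th percentile, limit what could be called.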
